A study of Mus musculus with 2 samples.

Results

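Hilpda and 5 genes of triglyceride breakdown were followed across the cell types of the infarcted mouse brain. The 6 genes are Hilpda, G0s2, Pnpla2, Abhd5, Lipe and Mgll. They were taken by their symbols from 31253 counted features, and all 6 were present. Neutral lipid stored in lipid droplets is broken down stepwise. Pnpla2, the adipose triglyceride lipase, removes the first fatty acid, Lipe, the hormone-sensitive lipase, acts mainly on the resulting diacylglycerol, and Mgll, the monoacylglycerol lipase, acts on the monoacylglycerol. Abhd5 switches Pnpla2 on, whereas the small proteins Hilpda and G0s2 inhibit it. Hilpda is known as a target of hypoxia signalling and of PPAR receptors and is abundant in lipid-laden macrophages, and Mgll in brain also degrades the endocannabinoid 2-arachidonoylglycerol.

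RNA of single cells was counted with the BD Rhapsody system in infarct tissue that had been dissected and dissociated with collagenase 3 days after transient occlusion of the middle cerebral artery (tMCAO), a model of ischaemic stroke. There was 1 library of Hilpda cKO (conditional knockout) mice and 1 library of flox mice, the controls, which the design text also calls WT. The sources used here do not give the Cre driver, the deleted exons or the number, age and sex of the animals in each library, nor whether the controls carried Cre. Each group being a single library, no difference has a replicate check and none was tested. Every difference below is between these libraries, preparation and group cannot be told apart, and all intervals are 95% intervals that cover counting error only.

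The Hilpda cKO library held 7382 barcodes and 70665440 UMIs (unique molecular identifiers, each counting 1 captured RNA molecule), and the flox library held 8593 barcodes and 67864602 UMIs. After filtering, 6984 Hilpda cKO cells (median 8741 UMIs) and 8065 flox cells (median 6997 UMIs) remained. The libraries shared 56 barcode sequences. Cells fell into 26 clusters, of which 24 were named from markers and formed 14 classes, and the 8 classes that held 100 or more cells of both libraries were set side by side. These were monocyte or macrophage-like (3076 Hilpda cKO and 3621 flox cells, called macrophage-like below), microglia-like (1620 and 2353), neutrophil-like (306 and 212), oligodendrocyte-like (348 and 343), endothelial cell-like (538 and 562), dendritic cell-like (247 and 274), border-associated macrophage-like (187 and 188) and mural cell-like (109 and 108). The 9 microglia markers summed to 14185 and 15825 CPM (UMIs of the gene per 1000000 UMIs of the class) in Hilpda cKO and flox microglia-like cells, against 2602 and 2816 CPM in macrophage-like cells. The list was not specific to microglia, as it summed to 10833 and 8173 CPM in endothelial cell-like and to 9018 and 6900 CPM in mural cell-like cells. In dendritic cell-like cells the 8 dendritic cell markers summed to 1966 and 2162 CPM. The 11 monocyte or macrophage markers summed to more there, at 2300 and 2936 CPM. With every cell gated singly by its own markers, 42.9% of Hilpda cKO and 31.0% of flox dendritic cell-like cells were also in that class. Of macrophage-like cells 48.7% and 50.2% were. The 4 mast cell markers summed to 73.5 CPM in Hilpda cKO microglia-like cells and to 0 in flox ones, from 10 Hilpda cKO cells. The 5 erythroid markers were lower in Hilpda cKO in all 8 classes, at 56.8 and 395 CPM in macrophage-like and 5.92 and 107 CPM in microglia-like cells, and their part in the ratios below was not tested.

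Levels were UMIs summed over a class and library, in CPM. A ratio past the size rule was at least 2-fold, had at least 30 UMIs in the higher library and had an interval that excluded equal levels. Of 48 pairs of gene and class, 32 had at least 30 UMIs in the higher library, and of these 13 were lower and 1 was higher in Hilpda cKO by this rule. Among all genes with at least 30 UMIs, the share lower in Hilpda cKO was 5.36% in macrophage-like, 5.78% in microglia-like, 6.54% in endothelial cell-like, 4.96% in oligodendrocyte-like, 4.67% in dendritic cell-like, 3.65% in neutrophil-like, 4.81% in border-associated macrophage-like and 4.13% in mural cell-like cells. The share higher was 0.686%, 0.717%, 0.899%, 0.874%, 0.584%, 2.82%, 1.17% and 2.55% in the same classes. Of the 13 lower ratios 8 belonged to Pnpla2, 3 to Lipe, 1 to Hilpda and 1 to Mgll, and the higher ratio belonged to Hilpda. Abhd5 and G0s2 had none.

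**Figure D1:**
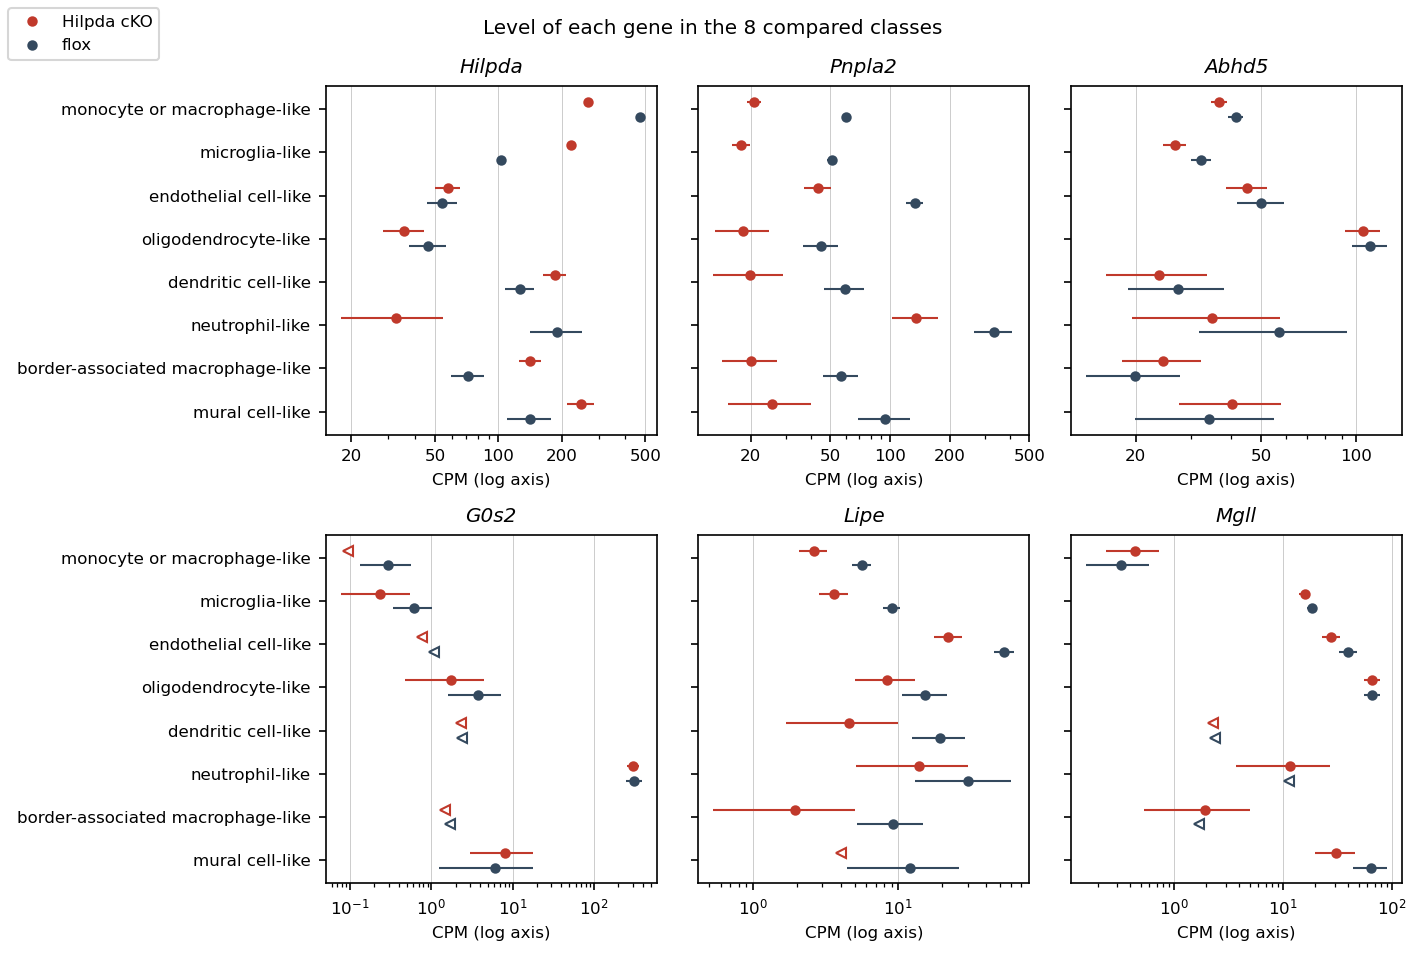
Level of the 6 genes in CPM (log axis, a separate range for each gene) in the 8 compared classes, Hilpda cKO above flox in each row. Points are sums over 1 library, bars are exact Poisson intervals, and open triangles mark the limit of 3 counts where fewer than 3 UMIs were seen. Pnpla2 is lower in Hilpda cKO in every row, G0s2 stands at 305 and 315 CPM in neutrophil-like cells and at most at 8.11 CPM in the other rows, and Hilpda changes order between rows.

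Hilpda (ENSMUSG00000043421, chr6:29272488-29275446 on GRCm38, plus strand, 2 exons) is the gene targeted in the knockout. Over all kept cells it had 14516 UMIs and 214 CPM in Hilpda cKO, against 17563 UMIs and 273 CPM in flox (-0.35), short of 2-fold, where 5.26% of all genes were lower and 2.66% higher in Hilpda cKO by the size rule. Its RNA was thus still counted in the knockout library. Reads of this assay start at the 3′ end, which may lie outside the deleted part, so this level checks neither the label nor the deletion. Most Hilpda UMIs lay in macrophage-like cells and most G0s2 UMIs in neutrophil-like cells. The separation was not complete, as flox neutrophil-like cells also had 190 CPM of Hilpda. The promoters of both inhibitors are shown here. They are RefSeq sequences (GRCm38.p6), 250 bases before to 50 after a start site, Hilpda at chr6:29272376-29272675 on the plus strand (the downstream of 2 listed start sites) and G0s2 at chr1:193273139-193273438 on the minus strand. Capitals mark the core of the hypoxia response element, ACGTG or GCGTG, searched on both strands.
Hilpda: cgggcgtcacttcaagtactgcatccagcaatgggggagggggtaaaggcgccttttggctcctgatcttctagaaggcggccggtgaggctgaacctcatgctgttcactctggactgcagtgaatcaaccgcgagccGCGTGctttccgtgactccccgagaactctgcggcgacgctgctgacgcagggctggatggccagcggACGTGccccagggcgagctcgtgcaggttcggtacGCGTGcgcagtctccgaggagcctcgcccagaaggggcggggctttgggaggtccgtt
G0s2: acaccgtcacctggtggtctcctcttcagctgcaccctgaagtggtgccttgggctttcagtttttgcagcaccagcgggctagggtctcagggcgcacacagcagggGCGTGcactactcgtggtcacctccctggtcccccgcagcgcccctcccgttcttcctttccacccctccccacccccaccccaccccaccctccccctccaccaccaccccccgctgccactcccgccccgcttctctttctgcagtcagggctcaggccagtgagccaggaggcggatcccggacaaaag
The Hilpda window shown held 3 matches and the G0s2 window 1. The overlapping window of the other Hilpda start site also held 1, which is the first match of the window shown. The windows of Mgll held 4 and 7 matches, those of Lipe 3 and 0, and that of Abhd5 1. A core that reads the same on both strands was counted on each, as in the Mgll window with 4 and the Lipe window with 3. Of 32851 promoters of this length, 43.8% held at least 1 match and 8.93% held at least 3. The Pnpla2 window held none, and no window of the 6 genes held the PPAR element searched for, a direct repeat that 0.0396% of promoters held.

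Hilpda RNA was shared out differently among the cells of the 2 libraries. Macrophage-like cells held 58.6% of all Hilpda UMIs in Hilpda cKO and 82.6% in flox, and microglia-like cells held 32.2% and 13.2%. In macrophage-like cells the level was 268 CPM in Hilpda cKO and 473 CPM in flox (log2 ratio -0.82, interval -0.86 to -0.78), short of 2-fold. In microglia-like cells it was 221 CPM in Hilpda cKO and 102 CPM in flox (1.11, 1.04 to 1.19), past the size rule. The median over all genes was 0.01 in macrophage-like cells and -0.03 in the microglia-like class. Without the 10 cells that held a mast cell marker the microglia-like ratio was 1.11.

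The spread over macrophage-like cells also differed. The tenth of these cells with the most Hilpda held 70.3% of its UMIs in Hilpda cKO and 48.9% in flox, with at most 57 and 59 UMIs in a cell. With each cell thinned to 2000 UMIs, which left out 81 Hilpda cKO and 99 flox cells, 20.8% of macrophage-like cells in Hilpda cKO (19.3 to 22.3%) and 39.6% in flox (37.9 to 41.2%) held a Hilpda UMI. In microglia-like cells the thinned shares were 23.2% in Hilpda cKO (21.02 to 25.5%) and 11.3% in flox (9.99 to 12.7%), with 188 and 239 cells left out. Unthinned, macrophage-like cells stood at 35.1% in Hilpda cKO and 62.4% in flox, and microglia-like cells at 50.2% and 32.6%. For background, a Hilpda UMI was held by 5 of 119 thinned choroid plexus epithelial cell-like cells in Hilpda cKO (4.20%) and by 0 of 52 in flox, where the limit of 3 counts stands at 5.77%. Their median depth was 5535.5 UMIs in Hilpda cKO and 3617 in flox, while macrophage-like cells had medians of 9978.5 and 7914 UMIs and microglia-like cells of 12822 and 8408.

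Within the macrophage-like class the clusters did not share 1 ratio. Cluster 0, led by Gpnmb and Arg1, a gene of alternatively activated macrophages, had 304 CPM of Hilpda in Hilpda cKO and 648 CPM in flox (-1.09, -1.14 to -1.04), the highest level of any macrophage-like cluster in flox. It held 4942 of the 8511 macrophage-like Hilpda UMIs in Hilpda cKO and 8943 of 14504 in flox. Its naming was close, with 4 of 11 monocyte or macrophage markers and 3 of 8 border-associated macrophage markers met. The markers Arg1 and Thbs1 among its leading genes decided the name. Cluster 3, led by Gpnmb and the fatty acid binding protein gene Fabp5, had 157 and 295 CPM (-0.91, -1.04 to -0.78). Cluster 1, led by Lyz1 and Arg1, had 268 and 370 CPM (-0.47, -0.55 to -0.38). The other 2 clusters had ratios closer to 0. Cluster 9, led by Ms4a4c and the interferon-induced Rsad2, had 305 and 364 CPM (-0.25, -0.42 to -0.09). Cluster 7, led by the monocyte receptor gene Ccr2, had 218 CPM in Hilpda cKO and 178 CPM in flox (0.29, 0.07 to 0.51). The 3 clusters led by Gpnmb, Arg1 or Lyz1 thus had the lowest ratios, and cluster 7 alone had more Hilpda in Hilpda cKO.

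All 5 microglia-like clusters had more Hilpda in Hilpda cKO, from 0.50 to 2.15 on the log2 scale. Cluster 2, led by Mmp12 and Cd5l, had 269 and 132 CPM (1.03, 0.94 to 1.12), and cluster 5, led by the cell division genes Cdk1 and Birc5, had 202 and 105 CPM (0.94, 0.82 to 1.07). Cluster 4, led by the homeostatic microglia genes Slc2a5 and P2ry12, had only 28.1 and 19.8 CPM, with an interval that included 0 (0.50, -0.07 to 1.07). Cluster 12, at a median depth of 794 UMIs, gave the highest ratio (2.15, 0.94 to 3.58) from 31 and 7 UMIs, and cluster 23 gave 0.92 (-0.02 to 1.83) from 20 and 24 UMIs. Cells of cluster 4 were 267 of 1620 microglia-like cells in Hilpda cKO and 704 of 2353 in flox, so the class ratio mixes clusters in unequal parts.

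The microglia-like result depended on how cells were assigned. With every cell gated singly by its own markers, microglia-like cells had 229 CPM in Hilpda cKO and 183 CPM in flox, a log2 ratio of 0.32 that no longer passed the size rule. Of these gated cells, 512 of 2069 in Hilpda cKO and 777 of 3077 in flox lay in macrophage-like clusters, where they had 249 and 448 CPM. Gated cells inside the microglia-like clusters had 224 and 99.6 CPM.

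**Figure D2:**
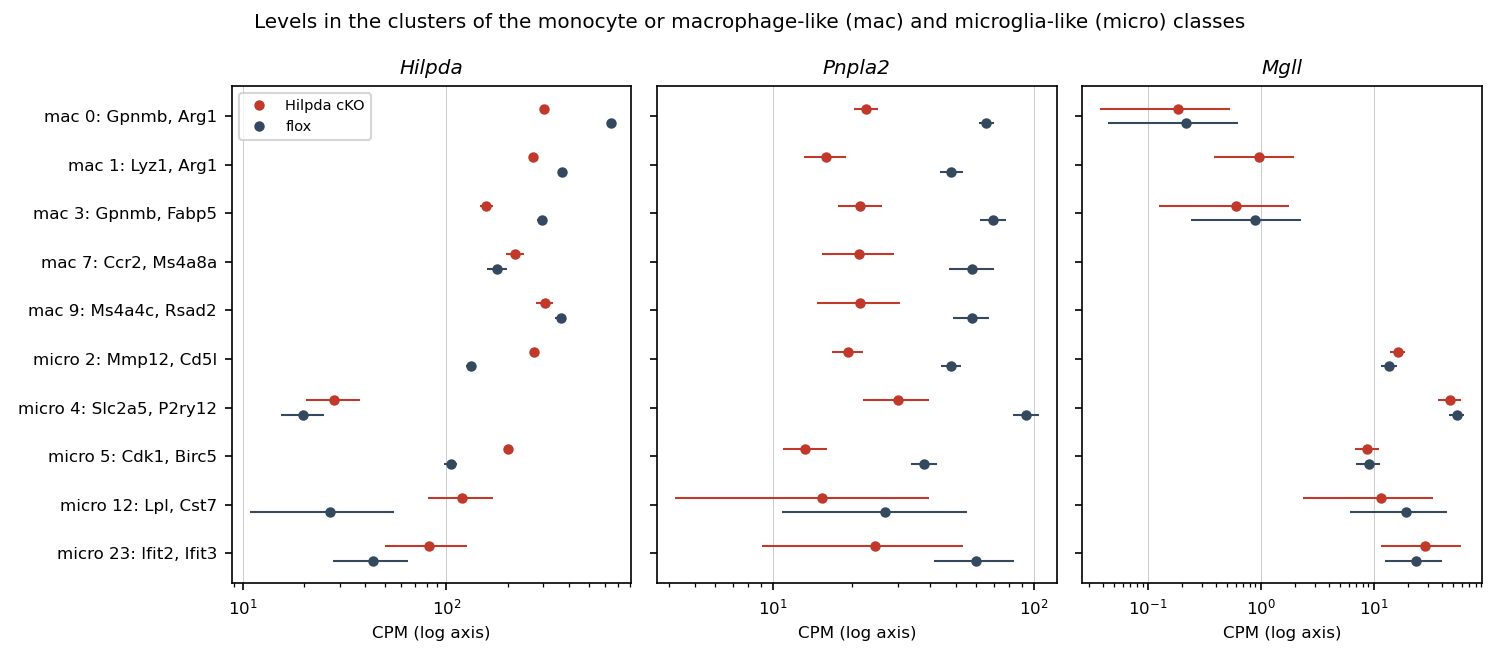
Levels of Hilpda, Pnpla2 and Mgll in CPM (log axis) in the clusters of the macrophage-like (mac) and microglia-like (micro) classes, each with its number and 2 leading genes, Hilpda cKO above flox. Bars are exact Poisson intervals, and points from fewer than 3 UMIs are not drawn. Hilpda is lower in Hilpda cKO in mac 0 (304 and 648 CPM) and higher in micro 2 (269 and 132 CPM), Pnpla2 is lower in value in every cluster drawn (-0.80 from 4 and 7 UMIs in micro 12), and Mgll is highest in micro 4.

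In the other classes Hilpda ratios ran both ways. Mural cell-like cells had 247 and 141 CPM (0.81, 0.41 to 1.23) and dendritic cell-like cells 185 and 127 CPM (0.55, 0.25 to 0.85), both short of 2-fold. Endothelial cell-like cells had 57.4 and 53.9 CPM (0.09, -0.22 to 0.40), and oligodendrocyte-like cells had 35.5 and 46.4 CPM (-0.39, -0.83 to 0.05). Border-associated macrophage-like cells had 141 and 71.8 CPM (0.98, 0.67 to 1.29). The number of thinned cells with a Hilpda UMI was 17 of 163 in Hilpda cKO and 17 of 170 in flox, and the tenth of cells with the most Hilpda held 81.7% and 61.9% of it, so the sum rested on few cells. With cells gated singly the ratio turned to -0.86, and 998 of 1208 Hilpda cKO and 934 of 1134 flox cells then in the class lay in macrophage-like clusters. With finer clustering it turned to -0.88, and 348 of 566 and 281 of 493 cells did.

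Neutrophil-like cells had the lowest Hilpda ratio of the compared classes, at 32.5 CPM in Hilpda cKO and 190 CPM in flox (-2.54, -3.51 to -1.67), past the size rule. The counts were small, with 14 UMIs in 14 of 306 Hilpda cKO cells and 50 UMIs in 29 of 212 flox cells, and a highest count in a cell of 1 in Hilpda cKO and 8 in flox. Median depth was 1292 UMIs in Hilpda cKO and 1064 in flox, the lowest of the compared classes and below the thinning depth of 2000 UMIs. The 11 monocyte or macrophage markers summed to 1602 CPM in Hilpda cKO and 1962 CPM in flox neutrophil-like cells. Without the 58 Hilpda cKO and 31 flox cells that held at least 2 of these markers, 7 and 46 Hilpda UMIs remained and the ratio was -3.49 (-4.88 to -2.33). The neutrophil markers themselves summed to 20542 CPM in Hilpda cKO and 28614 CPM in flox, and their part in the result was not tested.

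Free RNA in single-cell assays can carry UMIs into other cells, so Hilpda was set beside Lyz2, a lysozyme gene of high level in macrophages, a comparison chosen after the data were seen. Lyz2 itself was lower in Hilpda cKO, at 7919 and 17004 CPM in macrophage-like and 919 and 1520 CPM in microglia-like cells, so the multiples below compare classes within a library and not the libraries. Macrophage-like cells had 3.38 Hilpda UMIs per 100 Lyz2 UMIs in Hilpda cKO and 2.78 in flox. If all Lyz2 UMIs of another class had come from macrophages in that ratio, microglia-like cells would hold 656 Hilpda UMIs in Hilpda cKO and 961 in flox. The counts seen were 7.13 and 2.42 times that. In endothelial cell-like cells they were 8.67 and 4.31 times and in mural cell-like cells 16.8 and 6.23 times. Neutrophils and border-associated macrophages make Lyz2 themselves, so the ratio gives no background in those classes, where Lyz2 stood at 969 and 2418 CPM and at 4751 and 9747 CPM.

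The other inhibitor, G0s2 (ENSMUSG00000009633, chr1:193272161-193273217, minus strand, 2 exons), was counted mostly in neutrophil-like cells. It lies inside Lamb3, which runs on the opposite strand, and the sources used here do not give the strand setting of the counting, so reads of the pair cannot be told apart. Neutrophil-like cells held 79.4% of all G0s2 UMIs in Hilpda cKO and 62.9% in flox, from 306 and 212 cells. The level there was 305 CPM in Hilpda cKO (255 to 361) and 315 CPM in flox (251 to 391), a log2 ratio of -0.05 with an interval of -0.46 to 0.37, beside a median of 0.15 over all 2273 genes of that class. The interval excludes a 2-fold difference by counting error alone. Macrophage-like cells had 1 UMI in Hilpda cKO and 9 in flox, and microglia-like cells 5 and 14. Dendritic cell-like cells had 0 and 0, with exact upper limits of 2.82 and 2.96 CPM. Mural cell-like cells had 6 and 3 UMIs and oligodendrocyte-like cells 4 and 8.

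Pnpla2 (ENSMUSG00000025509, chr7:141455198-141460743, plus strand, 9 exons), the lipase that both inhibitors act on, was lower in Hilpda cKO in all 8 classes. Macrophage-like cells had 20.8 CPM in Hilpda cKO (662 UMIs) and 60.5 CPM in flox (1855 UMIs), a log2 ratio of -1.54 (-1.67 to -1.41). Microglia-like cells had 17.9 and 51.3 CPM (-1.52, -1.69 to -1.35). Outside these classes the highest levels lay in neutrophil-like cells, at 135 CPM in Hilpda cKO and 330 CPM in flox (-1.29, -1.80 to -0.80), and in endothelial cell-like cells, at 43.5 and 133 CPM (-1.61, -1.88 to -1.34). The remaining ratios were -1.29 in oligodendrocyte-like, -1.58 in dendritic cell-like, -1.51 in border-associated macrophage-like and -1.88 in mural cell-like cells. Among these, the dendritic cell-like ratio was -1.37 with cells gated singly and the mural cell-like ratio -1.87 at no more than 10% mitochondrial UMIs, and both then missed the size rule. The 8 ratios had a median of -1.53, and relative to the median of the other classes they ran from -0.36 in mural cell-like to 0.25 in oligodendrocyte-like cells.

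Pnpla2 was thus lower both in classes with more and in classes with less Hilpda in Hilpda cKO. Within the macrophage-like clusters the Pnpla2 ratio ran from -1.69 to -1.42, with -1.53 in cluster 0 and -1.44 in cluster 7, whose Hilpda ratios had opposite signs. In microglia-like clusters it was -1.64 in cluster 4, which had the highest Pnpla2 level at 29.9 and 93.0 CPM, -1.52 in cluster 5 and -1.31 in cluster 2. At 2000 UMIs a cell, 4.21% of macrophage-like cells in Hilpda cKO and 10.3% in flox held a Pnpla2 UMI, and 3.84% and 11.4% of microglia-like cells did.

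Genes with a high GC content at the 3′ end of their transcripts had lower ratios. Between 24 and 56% GC the medians ran from -0.05 to 0.07 in macrophage-like cells and from -0.09 to 0.03 in the microglia-like class. At 56 to 60% they were -0.65 and -0.69. Genes with 60 to 64% GC over their last 500 nt had a median log2 ratio of -1.14 in macrophage-like cells and -1.37 in the microglia-like class, while genes with 48 to 52% had medians of 0.06 and 0.02. Pnpla2 has 51.8%, and genes within 2.5 percentage points of it had medians of 0.03 and 0.01, so its ratio relative to them was -1.57 in macrophage-like cells and -1.53 in the microglia-like class. Other genes of that GC spread widely. Of the genes within 2.5 percentage points, 3.87% in macrophage-like cells and 4.05% in the microglia-like class stood at or below Pnpla2. In the range of 48 to 52% the 5th percentile was -0.93 in macrophage-like cells and -1.06 in the microglia-like class. In the adjoining range of 52 to 56% it was -1.71 and -1.74. Lipe has 61.8%, and its ratios stood at the median of its GC range. The part of GC content in these ratios was not tested.

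**Figure D3:**
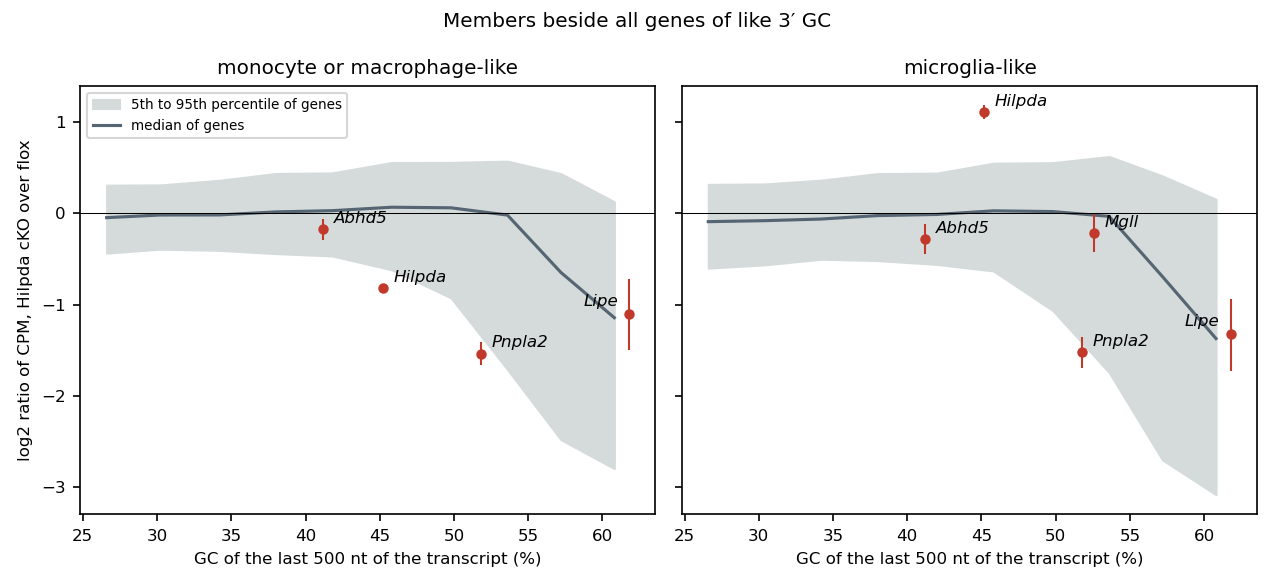
Log2 ratio of CPM, Hilpda cKO over flox, against the GC content of the last 500 nt of the transcript, in macrophage-like (left) and microglia-like (right) cells. The line and the grey band give the median and the 5th to 95th percentile of all genes with at least 30 UMIs in steps of 4 percentage points, and red points are the genes described here with at least 30 UMIs, with their counting intervals. Lipe (-1.10 and -1.33) sits on the median line at high GC, while Pnpla2 (-1.54 and -1.52) lies below it.

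Abhd5 (ENSMUSG00000032540, chr9:122351608-122381524, plus strand, 7 exons), the activator of Pnpla2, had no ratio past the size rule. Oligodendrocyte-like cells had the most, with 105 CPM in Hilpda cKO (92.3 to 119) and 110 CPM in flox (96.9 to 125), a log2 ratio of -0.07 (-0.34 to 0.19). Macrophage-like cells had 36.7 and 41.5 CPM (-0.18, -0.29 to -0.06), microglia-like cells 26.6 and 32.3 CPM (-0.28, -0.44 to -0.12) and endothelial cell-like cells 45.1 and 50.02 CPM (-0.15, -0.48 to 0.18). In the 7 classes with at least 30 UMIs the ratio ran from -0.28 to 0.29, short of 2-fold in each. An antisense gene, A730085K08Rik, overlaps its 3′ part, and reads of the pair cannot be told apart without strand. Abhd5 UMIs per Pnpla2 UMI were 1.76 in Hilpda cKO and 0.686 in flox macrophage-like cells, and 1.49 and 0.630 in the microglia-like class. Pnpla2 itself was lower in Hilpda cKO in both classes.

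Lipe (ENSMUSG00000003123, chr7:25379527-25398710, minus strand, 10 exons) was sparse, with 294 UMIs in all Hilpda cKO cells and 627 in flox. Endothelial cell-like cells had the most, at 22.0 CPM in Hilpda cKO and 53.6 CPM in flox (-1.28, -1.68 to -0.89). Macrophage-like cells had 2.61 and 5.61 CPM (-1.10, -1.50 to -0.72) and microglia-like cells 3.60 and 9.02 CPM (-1.33, -1.73 to -0.94), and these 3 classes passed the size rule. The medians of genes of like 3′ GC were -1.28, -1.12 and -1.30 in the same classes. Relative to those medians, taken over genes within 2.5 percentage points of GC, the ratios were 0.002, 0.02 and -0.02. With the coarser comparison of 10 GC bins holding equal numbers of genes they were -0.91, -0.71 and -0.88, so by either measure none of the 3 passed 2-fold. With equal weight for each cell the endothelial cell-like ratio was -0.88. Oligodendrocyte-like cells had 8.32 and 15.3 CPM (-0.88, -1.78 to -0.02). The antisense gene 4732471J01Rik overlaps Lipe.

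Mgll (ENSMUSG00000033174, chr6:88724412-88828360, plus strand, 8 exons), the lipase of the last step, was nearly missing from macrophages and present in microglia. Macrophage-like cells had 14 UMIs in Hilpda cKO and 10 in flox (0.440 and 0.326 CPM), against 336 and 420 UMIs in microglia-like cells (15.9 and 18.5 CPM; -0.22, -0.43 to -0.01). Among microglia-like clusters the P2ry12-led cluster 4 had the most, at 47.4 CPM in Hilpda cKO and 54.3 CPM in flox. Cluster 2 had 16.3 and 13.8 CPM and the dividing cluster 5 had 8.72 and 9.02 CPM. The Mgll ratios of clusters 2, 4 and 5 were 0.24, -0.20 and -0.05, each with an interval that included equal levels. Cluster 4 was 267 of 1620 Hilpda cKO and 704 of 2353 flox microglia-like cells, so the class ratio of Mgll mixes clusters in unequal parts. Within a library the intervals of clusters 2, 4 and 5 did not overlap for Mgll, and the order was opposite to that of Hilpda for cluster 4, which had the least Hilpda of these 3.

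Among the other classes oligodendrocyte-like cells had 66.6 and 66.4 CPM of Mgll (0.00, -0.33 to 0.34) and endothelial cell-like cells 27.9 and 39.7 CPM (-0.51, -0.90 to -0.11). The endothelial cell-like class joined clusters in unequal parts, cluster 6 (440 Hilpda cKO and 326 flox cells) and cluster 14 (98 and 236 cells). Their Mgll ratios were -0.28 (-0.75 to 0.20) and -0.88 (-1.89 to 0.04). Mural cell-like cells had 31.1 and 64.4 CPM from 23 and 32 UMIs (-1.05, -1.89 to -0.23), which passed the size rule. With at most 10% mitochondrial UMIs per cell that ratio was -0.85, short of 2-fold, and with cells gated singly it was -1.10 and missed the size rule. The antisense gene Gm26588 overlaps the 5′ part of Mgll.

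**Figure D4:**
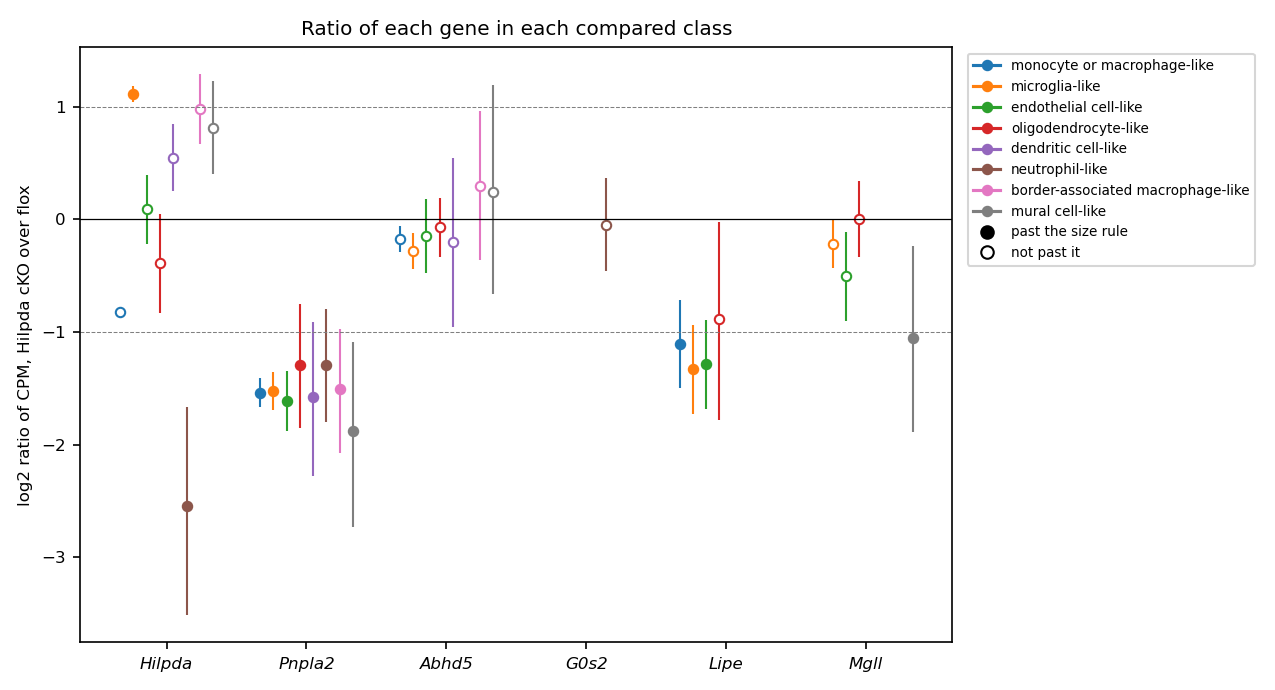
Log2 ratio of CPM, Hilpda cKO over flox, for each gene in the compared classes where the higher library had at least 30 UMIs. Bars are exact intervals of counting error, filled points passed the size rule and dashed lines mark 2-fold. Hilpda spreads from -2.54 to 1.11, Pnpla2 lies between -1.88 and -1.29, and Abhd5 between -0.28 and 0.29.

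The balance of inhibitor and lipase RNA was taken as Hilpda UMIs per Pnpla2 UMI. Each molecule is counted once at its 3′ end whatever its length, but capture can differ between genes. The value therefore compares classes within a library and not the genes with each other. Between libraries it also carries the lower Pnpla2 of Hilpda cKO in all 8 classes. Whether capture of a gene differed between the libraries was not tested. The value was 12.9 in Hilpda cKO (11.9 to 13.9) and 7.82 in flox (7.45 to 8.21) macrophage-like cells. In microglia-like cells it was 12.4 (11.1 to 13.8) and 1.996 (1.86 to 2.14). In flox the macrophage-like value was above every other class, and in Hilpda cKO its interval overlapped those of microglia-like, dendritic cell-like and mural cell-like cells. Endothelial cell-like cells had 1.32 and 0.406 and oligodendrocyte-like cells 1.93 and 1.03, where the log2 ratios of Hilpda itself were 0.09 and -0.39. Dendritic cell-like cells had 9.31 and 2.14, border-associated macrophage-like cells 7.05 and 1.26, and mural cell-like cells 9.63 and 1.49. It was lower in Hilpda cKO in neutrophil-like cells alone among the 8 classes, at 0.241 (0.124 to 0.438) and 0.575 (0.398 to 0.823). There G0s2 per Pnpla2 was 2.26 in Hilpda cKO (1.65 to 3.13) and 0.954 in flox (0.698 to 1.30), while the log2 ratio of G0s2 itself was -0.05. In macrophage-like cells the higher value in Hilpda cKO came with less Hilpda and still less Pnpla2.

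**Figure D5:**
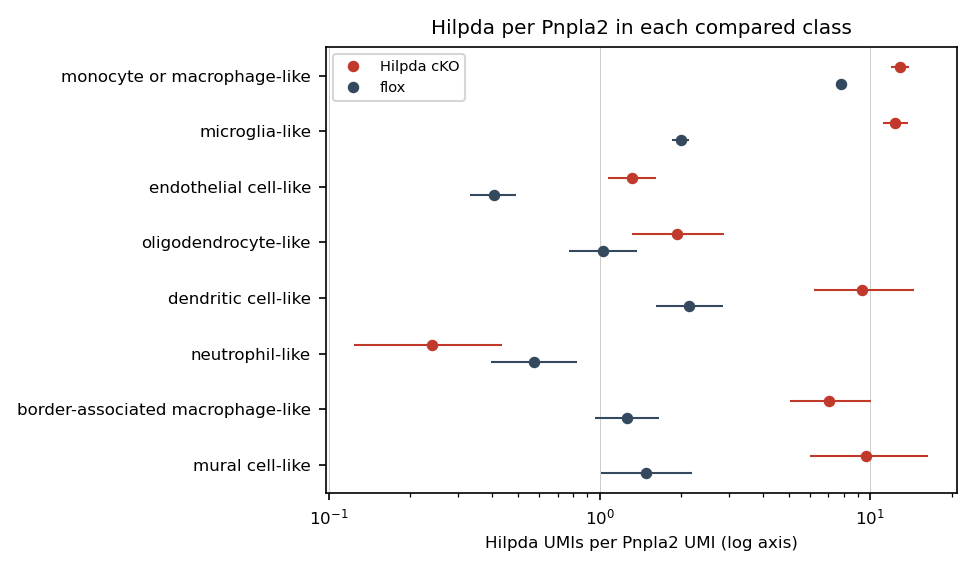
Hilpda UMIs per Pnpla2 UMI (log axis) in the 8 compared classes, Hilpda cKO above flox, with exact intervals of counting error. The value is higher in Hilpda cKO in 7 rows (12.9 and 7.82 in macrophage-like cells) and lower in neutrophil-like cells (0.241 and 0.575). Pnpla2 itself is lower in Hilpda cKO in all 8 classes.

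Within single cells Hilpda and Pnpla2 were found together about as often as their separate shares predict. In thinned macrophage-like cells, 34 Hilpda cKO cells held both against 26.2 expected (1.30 times, 0.90 to 1.82), and 158 flox cells held both against 144 expected (1.10 times, 0.94 to 1.29). In thinned microglia-like cells the observed and expected numbers were 10 and 12.8 in Hilpda cKO and 23 and 27.1 in flox. With all UMIs and the expectation summed over 10 strata of depth, macrophage-like cells gave 203 against 215 in Hilpda cKO (0.94 times, 0.82 to 1.08) and 942 against 927 in flox (1.02 times, 0.95 to 1.08). Hilpda with Abhd5 gave 0.75 times in Hilpda cKO (0.51 to 1.06) and 1.09 times in flox (0.91 to 1.30) in thinned macrophage-like cells. Hilpda with Mgll was seen in 11 thinned Hilpda cKO microglia-like cells against 11.4 expected and in 4 thinned flox cells against 12.5 expected (0.32 times, 0.09 to 0.82). Within strata of depth the flox pair gave 112 against 123 (0.91 times, 0.75 to 1.10).

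Other genes of the pathway were counted by lists. Of 11 droplet coat genes, 4 had at least 30 UMIs in macrophage-like cells and 5 in the microglia-like class, and 1 was lower in Hilpda cKO in each, Bscl2, the seipin gene of droplet formation (28.8 and 70.5 CPM, -1.29, in macrophage-like cells and 22.3 and 53.8 CPM, -1.27, in the microglia-like class; 57.0% 3′ GC). Plin2, the main droplet coat protein of these cells, had 845 CPM in Hilpda cKO and 909 CPM in flox macrophage-like cells (-0.11), and 772 and 577 CPM in the microglia-like class (0.42). Plin3 had log2 ratios of 0.16 and 0.34. The list medians were 0.03 and 0.13, beside 0.01 and -0.03 over all genes.

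Of 10 triglyceride synthesis genes, 7 and 5 had enough UMIs and 1 was lower in each class. This was Dgat1, which catalyses the last step of triglyceride synthesis, at 4.62 and 17.6 CPM in macrophage-like (-1.93) and 2.98 and 9.63 CPM in microglia-like cells (-1.69), with 56.6% 3′ GC. Gpat4 (0.23 and 0.22), Lpin2 (-0.00 and -0.06) and Lpin1 (-0.09 and -0.36) did not pass. The list medians were -0.04 and -0.30. Of 15 other acylglycerol lipases, 10 and 10 had enough UMIs, and only Dagla, which makes 2-arachidonoylglycerol, passed, in macrophage-like cells (3.77 and 8.31 CPM, -1.14). The lysosomal lipase Lipa had ratios of 0.15 and 0.33, Lpl 0.11 and 0.23, and Abhd12 0.68 and 0.77, with list medians of 0.11 and 0.05.

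Of 16 hypoxia and PPAR regulators and targets, 14 had enough UMIs in each class. None passed in macrophage-like cells, where the median was -0.16, and Ppard alone was lower in microglia-like cells (26.2 and 53.6 CPM, -1.03), where the median was -0.21. Hif1a, the oxygen-regulated factor, had 307 and 299 CPM in macrophage-like (0.04) and 194 and 223 CPM in microglia-like cells (-0.20). The glycolytic genes Ldha (-0.12 and -0.22) and Pgk1 (0.04 and -0.07) were also short of 2-fold. Ratios below 0 were held by 8 of the 14 genes with enough UMIs in macrophage-like cells, and by 11 of 14 in the microglia-like class. The part of hypoxia signalling in the Hilpda ratios was not tested. Of 13 genes of fatty acid activation, binding and oxidation, 13 had enough UMIs in each class, none passed in macrophage-like cells (median 0.09) and Fabp4, a fatty acid binding protein gene, was higher in the microglia-like class (12.97 and 3.96 CPM, 1.71, from 274 and 90 UMIs; median 0.20). Fabp5 had 0.38 and 0.59, Hadha 0.29 and 0.32 and Cpt1a 0.02 and 0.16.

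The pattern of each gene over the 8 classes of both libraries (16 points) was set beside every gene with at least 500 UMIs by Pearson's r of log2(CPM + 1). The points share libraries and depth, and r is a description. Most like Hilpda were Mmp14 (0.86), Stx4a (0.84), Diaph2 (0.80), Apobec1 (0.79) and Adap2 (0.78). Most like Pnpla2 were Nr1h2 (0.96), Chkb (0.94) and Pbx2 (0.91), and Lipe stood at 0.78 with it. Hilpda and Pnpla2 stood at -0.19 with each other, and Hilpda and Mgll at -0.52.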

How the data were processed

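Per the submitters' processing notes, base calling used CASAVA 1.8 and the tools named are STARsolo and Seurat with the mouse build mm10; the sources used here do not give their settings. The authors deposited raw UMI counts per gene and barcode, with no normalization. Barcodes under 500 UMIs, under 200 genes or over 25% mitochondrial UMIs were dropped (leaving 7126 in Hilpda cKO and 8275 in flox), and 142 and 210 predicted doublets were removed. Clustering used scanpy 1.11.5 and leidenalg 0.10.2 in Python 3.11.15 at resolution 1, on 2000 variable genes without 283 genes that included the 6 described and their related lists. Clusters were named from fixed marker lists, with naming thresholds set after the clusters were seen, and 2 clusters stayed unnamed. The 6 genes and all lists were chosen with earlier results of these data known.

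UMIs were summed per class and library and divided by the class total to give CPM, with exact Poisson intervals and exact conditional intervals for ratios (scipy 1.17.1). Ratios are log2 of Hilpda cKO over flox. Cells are not replicates, and with 1 library per group no test was run. Lists were described by counts and medians of genes with at least 30 UMIs. From each related list the text gives the genes past the size rule and examples among those with the most UMIs, and other examples were chosen after their values were seen. GC content was taken over the last 500 nt of the longest GENCODE M21 transcript, for 31107 of 31253 features. Alternatives were TMM scaling (edgeR 4.0.16 in R 4.3.3), at most 10% mitochondrial UMIs, doublets kept, cells gated singly, resolution 2, equal weight per cell and ratios relative to genes of like GC. Ratios relative to the other compared classes, and those without cells holding markers of another type, were chosen after seeing the data.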

Additional observations from a re-analysis of the deposited data

Results flagged for a closer look

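The Hilpda log2 ratio, Hilpda cKO over flox, had opposite signs in different classes. Neutrophil-like cells were at -2.54 and macrophage-like cells at -0.82, whereas microglia-like cells were at 1.11. The difference between the classes was not tested, since each group had 1 library, and the neutrophil-like value rests on 14 Hilpda cKO and 50 flox UMIs.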

How the results depend on the processing

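No paired analysis was possible because each group had 1 library, and for the same reason no replicate could be left out. The Hilpda ratio in macrophage-like cells was -0.74 with cells gated singly, -0.74 with equal weight per cell, -0.88 relative to genes of like GC and -1.37 relative to the other compared classes. In microglia-like cells it was 1.004 with doublets kept, 0.32 with cells gated singly, 1.02 relative to the other classes and 1.24 with equal weight per cell. Relative to the other classes, Pnpla2 was at -0.018 in macrophage-like, 0.018 in microglia-like, 0.25 in oligodendrocyte-like, 0.25 in neutrophil-like and 0.031 in border-associated macrophage-like cells, and Lipe at 0.18 in macrophage-like cells; by construction, this setting removes what the classes share. The number of lower ratios was 13 as reported, 3 with a minimum of 100 CPM and 2 relative to the other classes. The number of higher ratios was 1 as reported and 2 with equal weight per cell. Calls with equal weight used only the fold and UMI parts of the size rule, without an interval. All 14 ratios past the size rule stayed past it in the same direction with TMM scaling, at resolution 2 and with doublets kept, and 12 did so at 10% mitochondrial UMIs, 11 with cells gated singly, 13 with equal weight and 11 relative to genes of like GC. Those that missed it were Pnpla2 and Mgll in mural cell-like cells at 10% mitochondrial UMIs, Hilpda in microglia-like, Pnpla2 in dendritic cell-like and Mgll in mural cell-like cells with cells gated singly, and Lipe in endothelial cell-like cells with equal weight and in all 3 of its classes relative to genes of like GC. Ratios of G0s2 outside neutrophil-like cells and of Mgll in macrophage-like cells are limited, since fewer than 30 UMIs were counted there. The low levels of both genes in macrophage-like cells were read from 31791624 UMIs in Hilpda cKO and 30682481 in flox.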

Other observations

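Of the classes too small to be compared, astrocyte-like and oligodendrocyte precursor-like cells had more Mgll than any compared class in both libraries. Astrocyte-like cells had 269 CPM in Hilpda cKO (157 UMIs) and 169 CPM in flox (45 UMIs), and oligodendrocyte precursor-like cells had 135 and 136 CPM (78 and 85 UMIs). Choroid plexus epithelial cell-like cells had 33.7 and 56.3 CPM (42 and 27 UMIs), below the 66.6 and 66.4 CPM of oligodendrocyte-like cells. Astrocyte-like cells held 16.8% of all Mgll UMIs in Hilpda cKO and 5.07% in flox, from 90 and 47 cells, while microglia-like cells held 36.0% and 47.3%. These shares also follow the number of cells in a class.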
